A study of Mus musculus with 12 samples.

Results

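Cells that run short of oxygen stabilize the transcription factor HIF-1, which turns on genes for blood vessel growth, pH control, mitochondrial clearance and the breakdown of glucose to lactate. In oxygen, the prolyl hydroxylases of the EGLN family mark the HIF-1α subunit for degradation, and the genes of EGLN1 and EGLN3 are themselves HIF targets. Solid tumors often hold poorly perfused areas, and many of them also run glycolysis at a high rate when oxygen is present.

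The genes described here are 36 hypoxia and glycolysis genes, named as a list of symbols, out of 34678 symbols in the tables. They comprise 13 HIF targets outside glycolysis, 21 genes of glucose uptake and glycolysis (2 glucose transporters, 14 glycolytic enzymes and 5 regulators or members of the lactate arm), Hif1a itself, and 8430408G22Rik, an entry that current annotation calls Depp1 and that is known as a FOXO-responsive gene of the autophagy program. All 36 members were found in the tables, and all 36 passed the filter on low values (mean FPKM of 0.1 or more), as did 15350 genes in all.

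RNA was sequenced from 12 subcutaneous tumors grown in C57BL/6 mice of either sex from LLC1-shLkb1 cells, that is Lewis lung carcinoma cells in which a short hairpin RNA lowers Lkb1 (Stk11). Each of 4 arms had 3 tumors: vehicle (control immunoglobulin), palbociclib (an oral inhibitor of the cell cycle kinases CDK4 and CDK6), an antibody against PD-1 (an inhibitory receptor of T cells), and the combination of both. Every arm carried the knockdown, so Stk11, at 7.90 to 11.5 FPKM, does not check any label, and no tumor without the knockdown was analysed here. The lung lineage markers Nkx2-1 and Sftpc were at 0 in all 12 tumors. Of the keratins in the lung marker list (Krt8, Krt18 and Krt19), Krt8 alone was high (62.0 to 276 FPKM). Values are FPKM, fragment numbers scaled by gene length and by library size, and the 36 members took 1.25% to 2.49% of the FPKM sum of a tumor. The smallest steps of the values correspond to about 14900000 to 20300000 fragments per tumor. The labels do not say that each tumor came from a separate mouse, so p-values measure the spread between these tumors.

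Before the members are taken in turn, the tumors themselves need a description, since some held high levels of genes of other tissues. The summed FPKM of 9 skeletal muscle genes was 209.6 in palbociclib tumor 3, 184 in combination tumor 2 and 68.3 in vehicle tumor 1, against 0.745 to 12.4 in the other 9 tumors. The 8 fat cell genes summed to 976 in combination tumor 1 and 412 in palbociclib tumor 1 and to at most 45.3 elsewhere, and 8 skin genes summed to 378 in palbociclib tumor 2 and to at most 1.07 elsewhere. In bulk tissue, fewer cells of a type and less RNA per cell cannot be told apart, here and in every result that follows.

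HIF binds DNA at a short core, and that core was read in the promoters of the members. RefSeq promoters on GRCm38.p6, each 300 bases long (250 before and 50 after the start of transcription), were matched by symbol for 33 of the 36 members. They were searched on both strands for ACGTG, which reads CACGT on the other strand. A second search was for GCGTG, which reads CACGC there. The palindromic E-box, a site of other factors as well, holds the first motif on both strands. ACGTG was present in 8 of 11 promoters of HIF targets (72.7%) and in 9 of 20 promoters of glycolysis members (45.0%), against 19.7% of all 27025 RefSeq promoters and 25.2% of the 10599 that belong to genes tested in the tumors. GCGTG was present in 8 of 11 and 10 of 20, against 32.5% and 49.9%. The promoter of 8430408G22Rik held neither. The stretches shown here are 100 bases each, are free of annotated exons, are written 5′ to 3′ on the strand of the gene, and have ACGTG or GCGTG on either strand in capitals. Only stretches that held ACGTG were considered. They belong to 5 HIF targets (Ero1l is called Ero1a in RefSeq) and to 3 glycolysis members.
Ero1l (chr14:45318586-45318685, minus strand): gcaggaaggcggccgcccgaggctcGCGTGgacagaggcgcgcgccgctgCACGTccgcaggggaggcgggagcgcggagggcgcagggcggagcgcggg
P4ha2 (chr11:54100824-54100923, plus strand): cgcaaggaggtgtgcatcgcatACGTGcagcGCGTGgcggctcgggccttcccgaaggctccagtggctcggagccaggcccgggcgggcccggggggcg
P4ha1 (chr10:59323196-59323295, plus strand): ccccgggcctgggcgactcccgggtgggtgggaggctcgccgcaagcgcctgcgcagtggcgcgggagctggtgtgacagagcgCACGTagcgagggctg
Bnip3 (chr7:138909564-138909663, minus strand): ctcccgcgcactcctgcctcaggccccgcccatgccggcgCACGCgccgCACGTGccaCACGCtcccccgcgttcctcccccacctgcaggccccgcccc
Egln3 (chr12:54204025-54204124, minus strand): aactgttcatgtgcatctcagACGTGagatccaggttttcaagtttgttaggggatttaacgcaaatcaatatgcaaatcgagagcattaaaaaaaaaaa
Hk2 (chr6:82774457-82774556, minus strand): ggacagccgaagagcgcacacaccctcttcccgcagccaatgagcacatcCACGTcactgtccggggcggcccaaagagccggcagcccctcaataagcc
Pgk1 (chrX:106186919-106187018, plus strand): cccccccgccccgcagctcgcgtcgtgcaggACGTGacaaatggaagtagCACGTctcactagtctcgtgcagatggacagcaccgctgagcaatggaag
Ldha (chr7:46845704-46845803, plus strand): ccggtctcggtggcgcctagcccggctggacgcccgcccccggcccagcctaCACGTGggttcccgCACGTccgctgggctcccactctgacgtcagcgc
The last ACGTG of these stretches begins 63 bases before the start in Ero1l, 78 in P4ha2, 16 in P4ha1, 107 in Bnip3, 229 in Egln3, 52 in Hk2, 131 in Pgk1 and 34 in Ldha. A match of 5 letters is a description of the promoter and does not show that HIF was bound.

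The HIF targets outside glycolysis split the untreated tumors. In vehicle tumors 2 and 3 and in anti-PD-1 tumors 2 and 3, all 13 genes were above their own mean over the 12 tumors. For all 13 genes these 4 tumors were the 4 highest. The 4 tumors were picked out by the levels of these same genes, and the share of all genes with this order was not computed. In vehicle tumor 1 and anti-PD-1 tumor 1, none of the 13 was above its mean, and in none of the 13 did either tumor exceed the highest tumor treated with palbociclib. The mean log2 level of the 13 genes, relative to the mean over all tumors, was -0.55, 1.30 and 0.97 in vehicle tumors 1, 2 and 3 and -1.08, 0.82 and 0.90 in the anti-PD-1 tumors. It was 0.07, -0.16 and -0.88 with palbociclib and -0.43, -0.27 and -0.67 with the combination. The 6 palbociclib-treated tumors thus lay between the low and the high untreated tumors or beside the low ones.

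**Figure D1:**
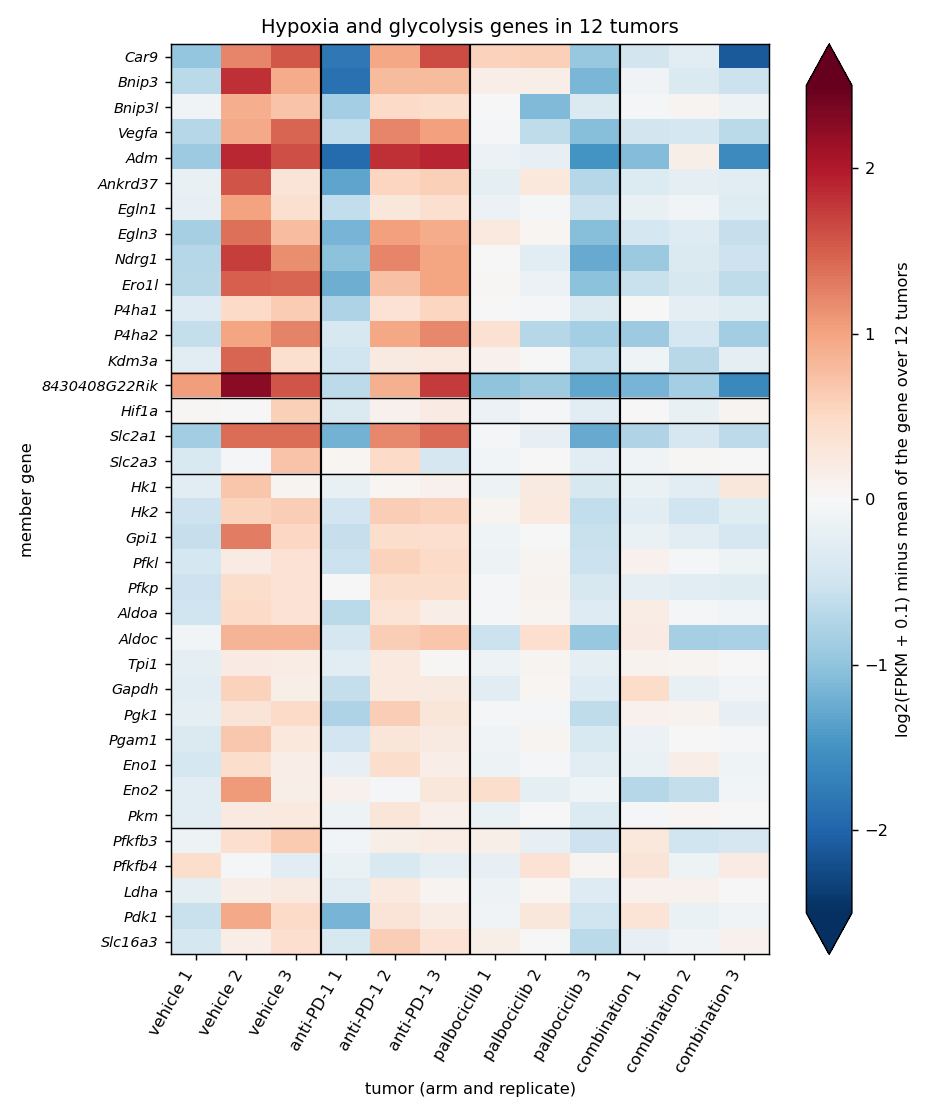
Level of the 36 members (rows, grouped by role with lines between groups) in the 12 tumors (columns, 3 per arm), as log2(FPKM + 0.1) minus the mean of the gene over all tumors; red is higher and blue lower. Vehicle tumors 2 and 3 and anti-PD-1 tumors 2 and 3 are red for all 13 HIF targets at the top, while vehicle tumor 1 and anti-PD-1 tumor 1 are blue like most treated tumors.

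Adm, which encodes the vasodilator peptide adrenomedullin, had the widest fold range of the 13 within the vehicle and anti-PD-1 arms. Its FPKM was 20.6, 144 and 118 in vehicle tumors 1, 2 and 3, 34.9, 33.6 and 13.8 with palbociclib, 10.1, 138 and 145 with anti-PD-1 and 18.2, 43.3 and 12.8 with the combination. The highest anti-PD-1 tumor exceeded the lowest 14.4-fold within one arm, and the arms overlapped. Vegfa, the main growth factor for blood vessels, had 5.17, 16.4 and 23.4 FPKM with vehicle, 8.30, 5.43 and 4.03 with palbociclib, 5.51, 20.05 and 17.3 with anti-PD-1 and 6.17, 6.23 and 5.29 with the combination. In 4 untreated tumors it was at 16.4 or more, and in the other 8 tumors at 8.30 or less.

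P4ha2 encodes a subunit of collagen prolyl 4-hydroxylase, which needs oxygen to mature collagen. Its level was 2.66, 8.13 and 9.83 FPKM with vehicle, 5.35, 2.46 and 2.22 with palbociclib, 3.05, 8.07 and 9.46 with anti-PD-1 and 2.12, 3.04 and 2.19 with the combination. The 3 combination tumors were below the 3 anti-PD-1 tumors, by a margin of 3.04 against 3.05 FPKM, whereas the palbociclib and vehicle tumors overlapped. Ndrg1, a stress-responsive gene of differentiation and metastasis control, had 16.6, 90.8 and 61.2 FPKM with vehicle, 27.0, 22.5 and 11.4 with palbociclib, 13.4, 63.5 and 54.7 with anti-PD-1 and 14.3, 21.4 and 19.1 with the combination. Ero1l, the endoplasmic reticulum oxidase that forms disulfide bonds in secreted proteins, had 41.5, 189 and 184 FPKM with vehicle, 68.4, 60.5 and 32.7 with palbociclib, 28.6, 111 and 134 with anti-PD-1 and 45.4, 51.0 and 43.3 with the combination. In both genes vehicle tumor 1 and anti-PD-1 tumor 1 lay within or under the range of the treated tumors.

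The remaining 8 HIF targets had the same 4 highest tumors. They were Car9 (the cell surface carbonic anhydrase of acid export), Bnip3 and Bnip3l (receptors for mitophagy), Egln1 and Egln3 (the oxygen-sensing prolyl hydroxylases), P4ha1 (a second collagen hydroxylase subunit), Kdm3a (a histone H3K9 demethylase) and Ankrd37. Their arm means ranged from 3.72 FPKM (anti-PD-1, Ankrd37) to 80.5 (vehicle, Egln3) without palbociclib and from 2.36 (combination, Car9) to 44.4 (palbociclib, Egln3) with it. Bnip3l shares sequence with the separately listed Bnip3l-ps (39.4 against 20.6 FPKM on average), and Bnip3 has copies in 5 other annotated genes, so how the counting divided their reads is uncertain.

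The spread within arms set the HIF targets apart from the glycolysis members in size. The SD of log2(FPKM + 0.1) within arms had a median of 0.80 over the 13 HIF targets, 0.37 over the 21 glycolysis members and 0.24 over all 15350 genes, and 33 of the 36 members were above that last value. Between the lowest and the highest vehicle tumor, the HIF targets differed by 1.94-fold (P4ha1) to 6.98-fold (Adm), with a median of 4.52-fold, and the glycolysis members by 1.36-fold (Tpi1) to 4.84-fold (Slc2a1), with a median of 1.96-fold. Within the combination arm the medians were 1.24-fold and 1.23-fold. The 3 combination tumors were therefore close together for both groups, with Car9 (3.87-fold) and Aldoc (2.39-fold) the widest.

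**Figure D2:**
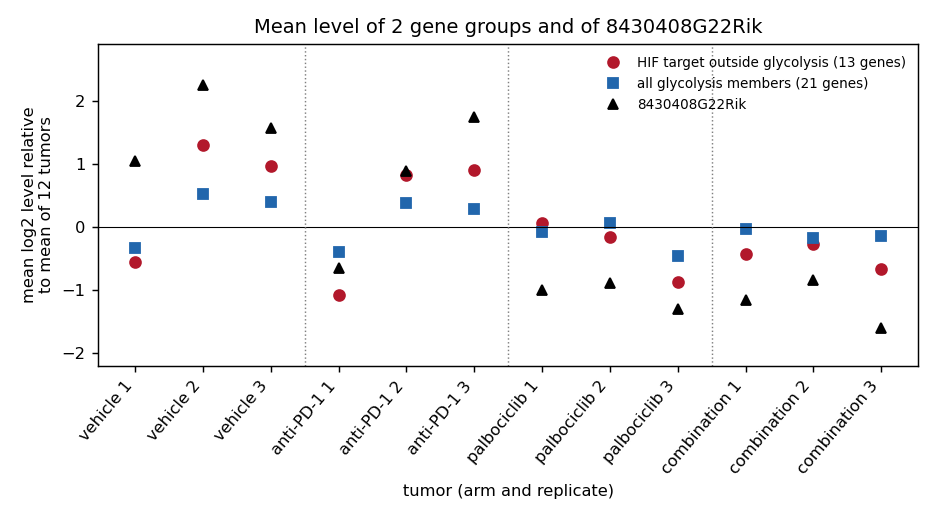
Mean level of the 13 HIF targets (red circles) and of the 21 glycolysis members (blue squares), and level of 8430408G22Rik (black triangles), in each tumor, as log2(FPKM + 0.1) relative to the mean over the 12 tumors. HIF targets range from -1.08 to 1.30 and glycolysis members from -0.46 to 0.53, and 8430408G22Rik is above 0 in vehicle tumor 1 (1.04), where both groups are below 0.

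Among the glucose transporters, Slc2a1 and Slc2a3 differed. Slc2a1 (GLUT1), the widely expressed glucose transporter and a HIF target, had 35.6, 171 and 172 FPKM with vehicle, 63.6, 56.9 and 27.2 with palbociclib, 28.7, 149.7 and 174 with anti-PD-1 and 38.7, 49.2 and 41.7 with the combination. It followed the order of the HIF targets, with 4 untreated tumors at 149.7 or more and the other 8 tumors at 63.6 or less. Slc2a3 (GLUT3), the high-affinity transporter known from neurons and leukocytes, was low, at 1.31, 1.66 and 2.92 FPKM with vehicle, 1.64, 1.74 and 1.43 with palbociclib, 1.79, 2.46 and 1.27 with anti-PD-1 and 1.62, 1.77 and 1.75 with the combination. Its arms overlapped, and anti-PD-1 tumor 3 was its lowest tumor.

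The glycolytic enzymes ranged in mean level from 0.217 FPKM (Eno2) to 1849.7 (Pkm), and their median SD within arms was lower than that of the HIF targets (0.39 against 0.80 on the log2 scale). Pkm, the pyruvate kinase of the last step, had 1536, 2139.8 and 2169.9 FPKM with vehicle, 1632, 1812 and 1453 with palbociclib, 1668, 2276 and 2011 with anti-PD-1 and 1780.4, 1894 and 1826 with the combination. Pgk1, phosphoglycerate kinase and the first ATP-forming step, had 614, 909 and 1002 FPKM with vehicle, 694, 705 and 467 with palbociclib, 426, 1100.0 and 895 with anti-PD-1 and 782, 773 and 626 with the combination. For 9 of the 14 enzymes the 4 highest tumors were again vehicle 2 and 3 and anti-PD-1 2 and 3. For 13 of 14, vehicle tumor 1 and anti-PD-1 tumor 1 were the 2 lowest untreated tumors. The shares of all genes with these orders were not computed. Pgk1 has 4 pseudogene copies and Pkm 1, of which Pgk1-rs7 alone was listed, at 4.20 FPKM.

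Aldoc, the brain-type aldolase, was low and rested on about 478 fragments in all. It had 0.605, 1.23 and 1.24 FPKM with vehicle, 0.411, 0.885 and 0.283 with palbociclib, 0.452, 1.03 and 1.10 with anti-PD-1 and 0.754, 0.315 and 0.323 with the combination. Vehicle tumor 1 and anti-PD-1 tumor 1 lay inside the range of the treated tumors. Pfkp, the platelet-type phosphofructokinase of the committed step, had 15.5, 30.3 and 28.9 FPKM with vehicle, 21.5, 23.8 and 16.8 with palbociclib, 22.4, 30.4 and 30.2 with anti-PD-1 and 19.0, 18.6 and 18.1 with the combination. The combination tumors were all below the anti-PD-1 tumors, while vehicle tumor 1 was the lowest of all 12. Pfkp overlaps Pitrm1 in the annotation and shares transcript sequence with it, and Pitrm1 itself had a palbociclib effect of -0.0013 on the log2 scale (adjusted p = 0.994, limma with Benjamini-Hochberg adjustment).

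Hk2, the inducible hexokinase that traps glucose in the cell, had 17.9, 37.9 and 39.4 FPKM with vehicle, 27.0, 30.5 and 16.8 with palbociclib, 18.4, 39.3 and 38.6 with anti-PD-1 and 21.6, 18.2 and 20.9 with the combination. Gpi1, glucose-6-phosphate isomerase, had 54.2, 196 and 114 FPKM with vehicle, 74.3, 81.4 and 54.5 with palbociclib, 53.7, 109 and 107 with anti-PD-1 and 72.1, 66.3 and 60.2 with the combination. Both genes were highest in the 4 untreated tumors named above, and their arms overlapped. The near-identical pseudogene Gm1840, listed at 36.2 FPKM on average, had the same 4 highest tumors as Gpi1, so the reads of the pair may have been divided between them. Eno1 and Eno1b (160.2 and 187 FPKM), Pgam1 and Pgam1-ps2 (434 and 131) and Tpi1 and Tpi-rs11 (185 and 45.6) are further pairs whose division is uncertain. The other enzymes of the group, Hk1, Pfkl, Aldoa and Eno2, had arm means from 0.123 FPKM (Eno2, combination) to 243 (Aldoa, vehicle).

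Gapdh, the dehydrogenase that is widely used as a reference gene in PCR, was at 39.4, 70.0 and 52.2 FPKM with vehicle, 39.4, 48.6 and 37.8 with palbociclib, 31.2, 56.1 and 54.9 with anti-PD-1 and 64.9, 41.5 and 45.0 with the combination. Its lowest and highest tumors, 31.2 and 70.0 FPKM, were both untreated. The primer list of the study holds a pair for mouse Gapdh, shown here because the transcript has so many copies; nothing is in capitals because both primers match in full.
Gapdh forward: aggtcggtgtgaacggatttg
Gapdh reverse: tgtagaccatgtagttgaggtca
Both primers, of 21 and 23 bases, matched a 123-base product in the Gapdh transcripts, and they also matched annotated transcripts of 43 other genes. In all, 77 other annotated genes held a copy of Gapdh sequence at 95% identity or more over at least 300 bases, 74 of them pseudogenes and 7 of them listed in the tables. The listed copies summed to 1.08 FPKM against 48.4 for Gapdh, or 2.17% of the sum. How reads that match the copies not listed were counted is not given in the sources used here, and the Gapdh level carries that uncertainty.

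The regulators and the lactate arm had a lower median SD within arms than the HIF targets (0.34 against 0.80 on the log2 scale). Pdk1, at 0.61, was above several of those targets, such as Egln1 at 0.44. Pfkfb3, which makes the allosteric activator of phosphofructokinase, had 3.27, 4.82 and 5.64 FPKM with vehicle, 3.97, 3.05 and 2.46 with palbociclib, 3.38, 3.97 and 4.06 with anti-PD-1 and 4.27, 2.50 and 2.65 with the combination. Pfkfb4, an isoform of the same enzyme family, had 2.03, 1.43 and 1.18 FPKM with vehicle, 1.25, 1.92 and 1.54 with palbociclib, 1.29, 1.11 and 1.24 with anti-PD-1 and 1.85, 1.34 and 1.71 with the combination. Pfkfb4 ran against the others: its highest tumor was vehicle 1, and its lowest was anti-PD-1 2.

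Ldha, the lactate dehydrogenase subunit that turns pyruvate into lactate, had 318, 423 and 438 FPKM with vehicle, 345, 391 and 299.9 with palbociclib, 313, 444 and 392 with anti-PD-1 and 405, 403 and 372 with the combination. Slc16a3 (MCT4), which exports the lactate, had 28.3, 43.0 and 51.4 FPKM with vehicle, 42.5, 38.9 and 24.0 with palbociclib, 29.1, 58.7 and 49.4 with anti-PD-1 and 33.5, 36.1 and 41.1 with the combination. The arms of both genes overlapped. Ldha spanned only 299.9 to 444 FPKM over the 12 tumors. Pdk1, the kinase that keeps pyruvate out of the mitochondria, ranged from 8.09 FPKM in anti-PD-1 tumor 1 to 35.0 in vehicle tumor 2.

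Hif1a, the gene of the regulated subunit, shared the order of its targets only in part. It had 49.9, 49.0 and 73.4 FPKM with vehicle, 44.3, 48.0 and 40.1 with palbociclib, 38.0, 52.6 and 55.9 with anti-PD-1 and 48.6, 42.7 and 51.1 with the combination. Its highest values were in vehicle tumor 3 and anti-PD-1 tumors 3 and 2, all high in HIF targets, and its lowest was in anti-PD-1 tumor 1. Vehicle tumor 2 departed from that order. Vehicle tumors 1 and 2 were alike in Hif1a (49.9 and 49.0 FPKM), whereas Adm differed between them 6.98-fold. HIF-1α is known to be controlled mainly through protein stability, which RNA-seq does not measure.

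8430408G22Rik (chr6:116650609-116652794, plus strand of GRCm38) had the clearest separation by treatment. Its FPKM was 2.82, 6.67 and 4.10 in vehicle tumors 1, 2 and 3, 0.608, 0.663 and 0.476 with palbociclib, 0.807, 2.52 and 4.67 with anti-PD-1 and 0.534, 0.690 and 0.365 with the combination. All 6 palbociclib-treated tumors were below all 6 untreated ones, with 0.690 and 0.807 FPKM the nearest values of either side. Vehicle tumor 1, low in the HIF targets, was at 2.82 FPKM, well above the highest treated tumor, whereas anti-PD-1 tumor 1 was close to the treated range. The gene rested on about 580 fragments in all 12 tumors.

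**Figure D3:**
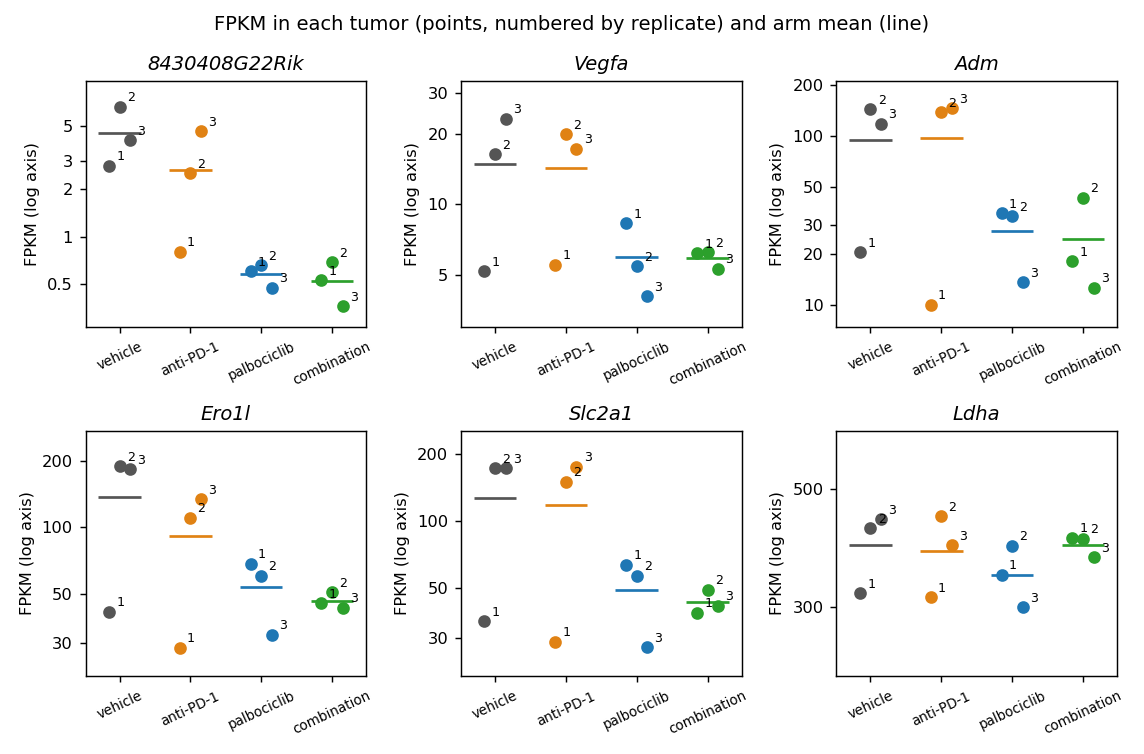
FPKM on log axes of 8430408G22Rik, Vegfa, Adm, Ero1l, Slc2a1 and Ldha in each tumor (points with their replicate number) by arm, with the arm mean as a line. For 8430408G22Rik all palbociclib and combination tumors are at 0.690 FPKM or less and all others at 0.807 or more; for Vegfa, Adm, Ero1l and Slc2a1 the tumors numbered 1 of the vehicle and anti-PD-1 arms lie with the treated tumors.

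The design asks whether palbociclib changes these genes, with or without anti-PD-1. The palbociclib effect averages 2 differences, palbociclib minus vehicle and combination minus anti-PD-1, on log2(FPKM + 0.1), a scale that understates changes of low genes, tested with limma (two-sided, with Benjamini-Hochberg adjustment over 15350 genes). One of the 36 members passed, 8430408G22Rik, which fell by 2.28 on the log2 scale (SE 0.36, adjusted p = 0.0399), a level 4.85-fold lower. With a pseudocount of 1 in place of 0.1 it fell by 1.43 (adjusted p = 0.0498). Of all genes tested, 0.313% passed and 0.0651% passed as lower. Members, 8430408G22Rik among them, were chosen with earlier results of these data known, so the 1 of 36 is no test of the set. Non-overlapping groups of 6 with the treated tumors lower were found for that 1 member and for 0.410% of all genes. The call depended on single tumors: the log2 difference stayed between -2.60 and -2.01 when each tumor was left out in turn, yet the adjusted p exceeded 0.05 without vehicle 2 (0.0798) or 3 (0.0891), palbociclib 1 (0.0663), 2 (0.0890) or 3 (0.118), anti-PD-1 2 (0.117) or 3 (0.121), or combination 1 (0.0984) or 3 (0.0912). It was 0.0543 without a trend in the variance model and 0.0649 with every gene above 0 in the test.

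None of the 13 HIF targets passed, although all 13 had lower means with palbociclib. Their differences ran from -1.46 (Adm) to -0.31 (P4ha1), with a median of -0.71 beside 0.055 for all genes tested. The unadjusted p was under 0.05 for P4ha2 (-1.13, SE 0.38, adjusted p = 0.148), Vegfa (-1.10, SE 0.40, adjusted p = 0.169) and Ndrg1 (-1.12, SE 0.47, adjusted p = 0.218). Adm, with the largest difference of the group, had an adjusted p of 0.274, and its 95% interval ran from -3.04 to 0.13. Without vehicle tumor 1, the number of members that passed rose from 1 to 4, namely 8430408G22Rik (-2.42, adjusted p = 0.0276), Vegfa (-1.42, adjusted p = 0.0422), P4ha2 (-1.41, adjusted p = 0.0415) and Pfkp (-0.54, adjusted p = 0.0344), and the number of all genes rose from 48 to 692. Without any one of the 9 tumors named for 8430408G22Rik it was 0.

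None of the 21 glycolysis members passed either, with a median of -0.21 and a range from -1.11 (Slc2a1) to 0.21 (Pfkfb4). Slc2a1 had an SE of 0.51 and an adjusted p of 0.248, and its 95% interval ran from -2.23 to 0.01. The unadjusted p was under 0.05 for Aldoc (-0.84, adjusted p = 0.186), Pfkp (-0.39, adjusted p = 0.220) and Pfkfb3 (-0.41, adjusted p = 0.228). For the abundant Pkm, Pgk1 and Ldha the differences were -0.17 (95% interval -0.46 to 0.11), -0.24 (-0.75 to 0.27) and -0.06 (-0.32 to 0.19). Gapdh was at -0.11 (-0.52 to 0.30) and Hif1a at -0.19 (-0.47 to 0.09).

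Over the whole set, 35 of 36 members were below 0, against 40.2% of all genes, with Pfkfb4 the exception. Of the 36, 7 had an unadjusted p under 0.05 and a lower mean, against 6.44% of all genes. Members that vary together across tumors are not independent, so these counts describe the set and are no test of it.

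**Figure D4:**
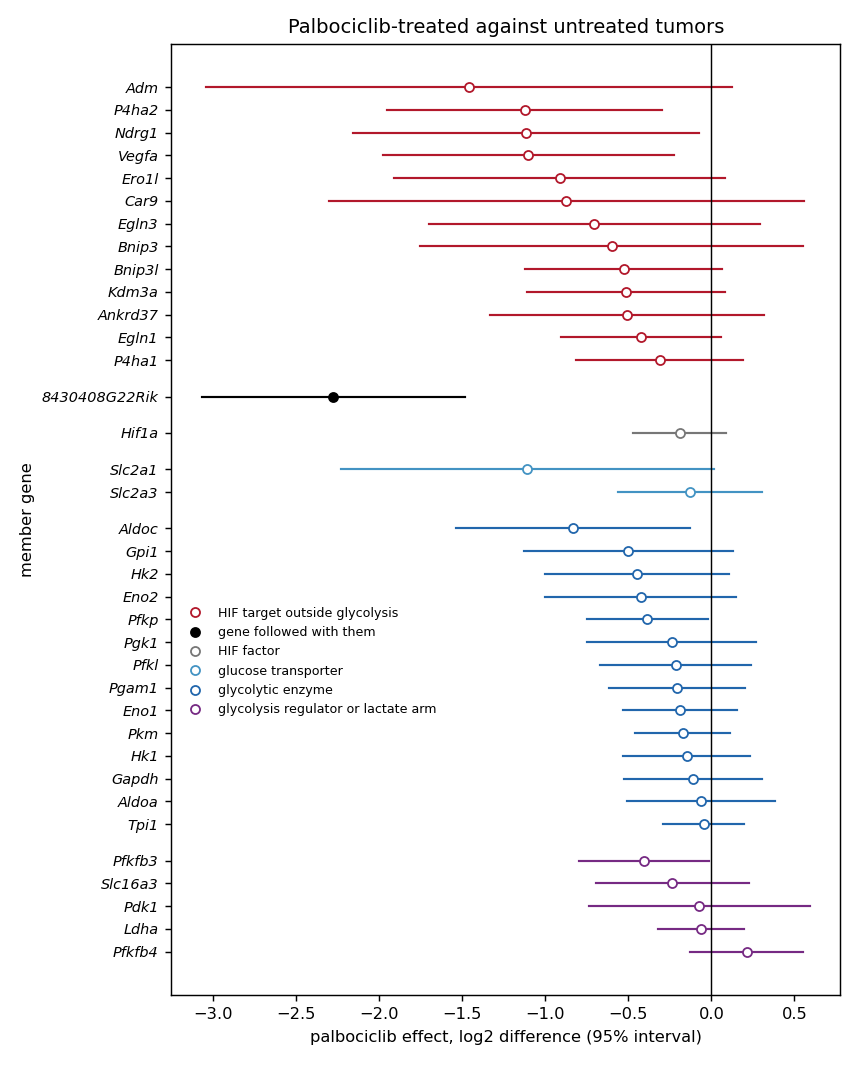
Palbociclib effect of each member as a log2 difference (points) with its 95% interval (lines), colored by role; the filled point marks an adjusted p under 0.05. 8430408G22Rik lies at -2.28 with its interval below 0, the HIF targets lie between -1.46 and -0.31, and most glycolysis members lie near the median of -0.21 with intervals that cross 0.

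Without anti-PD-1, palbociclib against vehicle gave no member past the threshold, against 0.143% of all genes. The median was -0.93 over HIF targets and -0.26 over glycolysis members. 8430408G22Rik was at -2.69 (SE 0.51, adjusted p = 0.0712) and Bnip3l at -1.01 (SE 0.38, adjusted p = 0.318), the 2 members with a lower mean and an unadjusted p under 0.05, against 4.36% of all genes. The 3 palbociclib tumors were below the 3 vehicle tumors for 8430408G22Rik and Hif1a, 2 of 36 members, against 6.47% of all genes. Without anti-PD-1 tumor 1, which enters the shared spread, the adjusted p of 8430408G22Rik was 0.0230 and 1 member passed.

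With anti-PD-1, palbociclib was compared as the combination against anti-PD-1 alone, and no member passed (0.00651% of all genes did). 8430408G22Rik was at -1.87 (SE 0.51, adjusted p = 0.327), P4ha2 at -1.32 (SE 0.53, adjusted p = 0.380) and Pfkp at -0.56 (SE 0.23, adjusted p = 0.394), the 3 members lower at an unadjusted p under 0.05, against 4.21% of all genes. These 3 and Eno2 were lower in all combination tumors than in all anti-PD-1 tumors, which makes 4 of 36 against 7.49% of all genes, and Pfkfb4 was higher in all of them, 1 of 36 against 11.4%. The medians were -0.69 over HIF targets and -0.10 over glycolysis members.

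The effect of palbociclib was then compared between mice with and without the antibody. The interaction, the difference between those effects, had no member past the threshold (0% of all genes, and 5.73% at an unadjusted p under 0.05, with no member among them). It ran from -0.70 (Car9) to 0.96 (Bnip3l) on the log2 scale, and its lowest adjusted p over the members was 0.885. For 8430408G22Rik it was 0.82 with a 95% interval from -0.77 to 2.40, an interval that includes 0 and is wide with 3 tumors an arm.

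For anti-PD-1 alone against vehicle no member passed in limma, nor did any of all 15350 genes (0%, with 8.40% at an unadjusted p under 0.05 and no member among them). The medians were -0.33 over HIF targets and -0.16 over glycolysis members. 8430408G22Rik was at -0.96 with a 95% interval from -2.08 to 0.16, and none of the 36 members separated the arms, against 11.3% of all genes. Same-numbered tumors of these 2 arms deviated together (r of 0.13 to 0.45 over genes), as did some differently numbered pairs (0.18 for vehicle 3 and anti-PD-1 2). The labels do not say what the number marks, and a fit with it as a block was chosen after seeing the data. In that limma fit of these 2 arms 5 of 36 members were lower at an unadjusted p under 0.05, against 4.24% of all genes. Of them Ero1l (-0.59) and Pdk1 (-0.50) had the lowest p, and no member passed (lowest adjusted p = 0.629).

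The combination against vehicle, which shares the vehicle tumors with both monotherapy comparisons, gave no member past the threshold (0.0130% of all genes), with medians of -1.02 over HIF targets and -0.19 over glycolysis members. 8430408G22Rik was at -2.83 (SE 0.51, adjusted p = 0.156), and without anti-PD-1 tumor 1 its adjusted p was 0.0317 and it was the 1 member that passed. Besides it, P4ha2 (-1.28), Aldoc (-1.02) and Kdm3a (-0.87) had unadjusted p-values under 0.05 and adjusted ones of 0.273 to 0.287, which makes 4 of 36 members lower at that level against 8.31% of all genes. The 3 combination tumors were below the 3 vehicle tumors for 8430408G22Rik and Ankrd37, 2 of 36 against 11.6% of all genes. The combination against palbociclib alone had medians of -0.09 over HIF targets and 0.09 over glycolysis members, no member past the threshold (0.00651% of all genes) and none with an unadjusted p under 0.05 (4.52% of all genes).

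Genes around the members were followed in 5 further lists, none of which had a gene past the threshold in the palbociclib effect. Of 35 other HIF targets tested, 27 were below 0, with a median of -0.34. Jmjd6, a Jumonji-domain hydroxylase, was at -0.30 (SE 0.06, adjusted p = 0.0543), with 13.01, 13.06 and 12.87 FPKM with vehicle, 10.9, 10.5 and 10.4 with palbociclib, 12.9, 14.6 and 13.3 with anti-PD-1 and 10.4, 11.5 and 11.01 with the combination. Its 6 treated tumors were all below its 6 untreated tumors, and vehicle tumor 1 lay with the other vehicle tumors.

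The other lists had medians nearer to that of all genes or above it. The 11 HIF subunits and regulators had a median of 0.01, with Rbx1, of the ubiquitin ligase that degrades HIF-1α, at 0.30 (adjusted p = 0.146) and Arnt, the partner subunit of HIF-1α, at -0.28 (adjusted p = 0.154). The 12 other glycolysis genes, chiefly isoforms of other tissues, had a median of 0.27, with Galm at 0.66 (adjusted p = 0.139) and Hk3 at 0.76 (adjusted p = 0.239). The 12 genes of pyruvate entry to mitochondria had a median of 0.13, with Pdk2 at 1.71 (adjusted p = 0.112) and Mpc2 at 0.41 (adjusted p = 0.163). The 11 FOXO factors and targets, the family that 8430408G22Rik is known to respond to, had a median of -0.26, with Sesn3 at 0.80 (adjusted p = 0.119) and Irs2 at -0.38 (adjusted p = 0.191). Pdk2 was at 2.46 FPKM in combination tumor 1, 1.09 in palbociclib tumor 1 and 0.711 in palbociclib tumor 3. The first 2 had the highest fat cell sums (976 and 412) and the last the highest muscle sum (209.6). In the other 9 tumors Pdk2 was at 0.343 FPKM or less. Among these was combination tumor 2, at 0.343 FPKM with a muscle sum of 184. Mpc2 (3.53 FPKM), Galm (3.90 FPKM), Hk3 (11.8 FPKM) and Sesn3 (1.13 FPKM) also had their highest level in combination tumor 1. Not all of them followed the fat cell sums in other tumors. Hk3 was at 10.3 FPKM in combination tumor 3 (fat cell sum 11.2) and at 6.36 in palbociclib tumor 1 (412). Galm was at 2.39 and 1.68 FPKM in the same tumors. The part of fat and muscle RNA in these differences was not tested.

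Marker genes of other cells also differed between the tumors that split the HIF targets. The summed FPKM of 5 neutrophil genes was 62.3 and 538 in vehicle tumors 2 and 3 and 276 and 244 in anti-PD-1 tumors 2 and 3, against 31.4 in vehicle tumor 1, 47.1 in anti-PD-1 tumor 1 and 14.1 to 88.5 with palbociclib. That of 5 macrophage genes was 118, 100.3, 82.9 and 87.3 in the same 4 tumors, against 173, 181 and 94.0 to 218. The sum of 9 muscle genes, a tissue rich in glycolytic enzymes, was 68.3 in vehicle tumor 1 and 12.4 in anti-PD-1 tumor 1, against 0.745 to 1.26 in the 4 tumors. The 7 endothelial genes summed to 26.0 to 50.3 in the 4 tumors, to 26.6 and 29.0 in the 2 low ones and to 18.6 to 27.3 with palbociclib. No list had every gene at 0, and the part of these cells in the levels of the members was not tested.

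Leaving out some of the tumors with high muscle, fat or skin genes kept the direction of both groups. Without palbociclib tumors 1 and 2 and combination tumors 1 and 2, 8430408G22Rik was at -2.60. That fit leaves only tumor 3 in each treated arm, so it cannot decide whether the call depends on muscle, fat or skin RNA. Without palbociclib tumor 3 and combination tumor 2, the treated tumors with the most muscle RNA, 8430408G22Rik was at -2.31 (adjusted p = 0.0689, limma). In this second fit no member passed. Vehicle tumor 1, with a muscle sum of 68.3 FPKM, stayed in both fits. Palbociclib tumor 3, with 209.6 FPKM, stayed in the first. The median over HIF targets without those 2 muscle-rich tumors was -0.59, and over glycolysis members -0.14.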

How the data were processed

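For each tumor the authors deposited a table of FPKM with 34745 entries, of which 67 repeat a symbol (none of them a member) and were reduced to the entry with the highest mean. Per the submitters' processing notes, reads were aligned with HISAT2 to GRCm38 (mm10). The counting tool and annotation are not given in the sources used here, and no further scaling between tumors was applied. Depth was estimated from the steps of low values in genes with a single annotated transcript, with lengths from GENCODE M21. Of the values of these genes under 20 fragments, 93.9% to 95.5% lay within 0.05 of a whole number. Most members have several transcripts, and the numbers of fragments given are approximate.

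Genes were kept at a mean FPKM of 0.1 or more, and log2(FPKM + 0.1) was fitted in R 4.3.3 by limma 3.58.1, as 1 mean per arm over all 12 tumors with a moderated variance that follows a trend in level (threshold of adjusted p 0.05). The code was tested on simulated data. Members, gene lists and marker lists were chosen with earlier results of these data known. Named members had a called difference, were singled out (Hif1a, Gapdh, Vegfa, 8430408G22Rik), or were in their role among the lowest p in the palbociclib effect (4, for transporters 2) or the 2 highest mean levels. Of other lists the 2 genes with the lowest p are named, except for 1 gene that is not reported here. Pdk1, members named at the end of a range, and tumors singled out by their levels were chosen after the values were seen. Copies were found with BLAST+ 2.17.0 in GENCODE M21 transcripts, promoters come from RefSeq on GRCm38.p6 (1 per gene, the first listed), and figures were drawn with matplotlib 3.10.9 in Python 3.11.15. Replicate numbers come from the labels, which do not say what they mark. For vehicle and anti-PD-1 alone, all 3 same-numbered pairs had r above 0.1, as did some differently numbered pairs. That comparison was also fitted with the number as a block. Other settings tried were a pseudocount of 1 or 0.01, a minimum mean of 1 FPKM or any value above 0, TPM, quantile normalization, no variance trend, a replicate block, only the 2 arms compared, and fits without 1, 2 or 4 tumors.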

Additional observations from a re-analysis of the deposited data

How the results depend on the processing

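The count of 1 member past the threshold in the palbociclib effect became 0 with every gene above 0 tested or without a variance trend. It was also 0 without palbociclib tumor 3 and combination tumor 2, the treated tumors with the highest muscle genes (chosen after seeing the data). A fit without palbociclib tumors 1 and 2 and combination tumors 1 and 2, all with high muscle, fat or skin genes, left 1 tumor in each treated arm. Its count is therefore not given. Leaving out 1 tumor gave 0 to 4 members. For palbociclib against vehicle and for the combination against vehicle the count of 0 became 0 to 1 on leaving out 1 tumor, the 1 being 8430408G22Rik without anti-PD-1 tumor 1. The other counts stayed at 0 in every fit run, and both medians moved by less than the spread between tumors, -1.18 to -0.47 for HIF targets and -0.34 to -0.12 for glycolysis members over 22 alternatives.

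Signs turned for 4 members, none of which passed the threshold in any fit: Slc2a3 (-0.25 to 0.026), Aldoa (-0.22 to 0.035), Tpi1 (-0.12 to 0.013) and Pdk1 (-0.31 to 0.090) on leaving out 1 tumor, and Aldoa (0.0069) and Pdk1 (0.074) without the 2 muscle-rich tumors. Of 790 single-gene alternatives 764 kept direction and side of the threshold. All 13 that lost it concern 8430408G22Rik. With a pseudocount of 1 its difference was -1.43 instead of -2.28.

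Over the 4 arms replicate numbers did not pair the tumors (7 of 18 same-numbered pairs had r above 0.1, range -0.21 to 0.45, and 6 of 12 tumors correlated best with their own number). With the replicate block 1 member passed, 8430408G22Rik at an adjusted p of 0.0288. In the vehicle and anti-PD-1 arms all 3 same-numbered pairs had r above 0.1, as did some differently numbered pairs. With the block in a fit of these arms (chosen after seeing the data) 0 members passed, as without it. The block changed no other call.

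Having 3 tumors an arm, with 2 of 6 untreated tumors low in HIF targets, limits what can be resolved. FPKM lack the counts behind them, and low genes such as Eno2 (about 206 fragments in all) carry a large counting error. Muscle, fat and skin RNA differed between tumors, and its part was not tested.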
